A study of Mus musculus with 4 samples.

Results

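Cyp2e1, Inmt, Fmo1, Fmo2, Ces1d, Aox3, Aldh1a1, Adh1 and Ephx1 encode enzymes that oxidise, hydrolyse or methylate foreign and endogenous small molecules. These 9 detoxification genes were taken by name from the 22180 mouse genes read in synovium, the soft tissue lining a joint. Where a gene had several probe sets that carried its symbol alone, the brightest on average was used. The genes were selected on their log2 fold changes between the arthritic and nonarthritic arrays described here, so their differences between groups are a description and not an independent test. The labels give no cell type, and the tissue was whole synovium.

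Arthritis was induced by serum transfer, in which autoantibodies in serum of a spontaneously arthritic mouse strain inflame the joints of recipient mice. The 4 arrays were Affymetrix MoGene 2.0 ST, each with total RNA of 1 pool of mice. Arthritic synovium was taken on day 10, labelled as peak inflammation, in 2 pools of 10 mice each, and nonarthritic synovium came in 2 pools of 3 mice each. All recipients were male C57BL/6J mice of 12 weeks, and tissue came from around the tibiotalar joint of the ankle. Arthritic mice received 150 microlitres of serum into the abdomen on days 0, 2 and 7, and nonarthritic mice received saline of the same volume on those days. For all 4 pools the serum strain is labelled K/BxN, which conflicts with the saline of the protocol, and the nonarthritic pools are labelled day 0. Serum, labelled day and pool size therefore cannot be told apart as sources of a difference.

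Detoxification enzymes are usually divided into those that add or expose a reactive group and those that attach a small group to the product. Cytochromes P450, flavin-containing monooxygenases, aldehyde oxidases, dehydrogenases, esterases and epoxide hydrolases belong to the first class, and methyltransferases to the second. The liver is their best known site, but adipocytes and fibroblasts also transcribe several of them. Some act on the body's own compounds: class I alcohol dehydrogenase can oxidise retinol to retinaldehyde, and Aldh1a1 oxidises retinaldehyde to retinoic acid, the ligand of the retinoic acid receptors.

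Promoter sequence was set beside the members as a description. Their common direction on these arrays was fixed by how they were selected. RefSeq promoters on build GRCm38.p6 were found for 7 of the 9 genes, with 9 start sites, and the windows below hold the 250 bases before a start, read 5′ to 3′ on the gene's strand. The 3 genes with the largest falls and the one with the smallest, Aox3, are shown, and capitals mark every match to the motifs searched.
Inmt, chr6:55174991-55175240, minus strand: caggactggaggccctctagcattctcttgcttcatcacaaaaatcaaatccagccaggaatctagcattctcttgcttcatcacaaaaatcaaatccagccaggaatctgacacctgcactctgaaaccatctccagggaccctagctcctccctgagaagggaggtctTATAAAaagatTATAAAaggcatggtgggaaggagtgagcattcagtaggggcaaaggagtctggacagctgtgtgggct
Cyp2e1, chr7:140763569-140763818, plus strand: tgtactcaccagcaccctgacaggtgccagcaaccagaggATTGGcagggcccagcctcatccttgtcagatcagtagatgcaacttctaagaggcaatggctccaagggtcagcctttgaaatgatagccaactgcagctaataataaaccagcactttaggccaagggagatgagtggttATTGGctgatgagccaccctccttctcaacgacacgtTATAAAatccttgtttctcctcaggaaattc
Fmo2, chr1:162898759-162899008, minus strand: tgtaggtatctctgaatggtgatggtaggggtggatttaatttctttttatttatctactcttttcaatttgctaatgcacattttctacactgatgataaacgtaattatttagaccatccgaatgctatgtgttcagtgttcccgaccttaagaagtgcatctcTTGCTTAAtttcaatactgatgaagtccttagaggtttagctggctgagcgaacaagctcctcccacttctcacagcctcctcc
Aox3, chr1:58112886-58113135, plus strand: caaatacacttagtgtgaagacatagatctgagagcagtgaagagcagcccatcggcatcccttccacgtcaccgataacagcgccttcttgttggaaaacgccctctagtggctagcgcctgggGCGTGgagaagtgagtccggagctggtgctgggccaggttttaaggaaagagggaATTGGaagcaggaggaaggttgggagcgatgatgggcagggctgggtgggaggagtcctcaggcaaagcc
The motifs were searched on both strands, as letters only. The TATA box TATAAA stood in 3 of the 9 windows (Inmt, Cyp2e1 and Ephx1) and in 12.4% of all 32851 windows in the table. In Cyp2e1 it began 31 bases before the start (position -31), and in Inmt it stood at -80 and -69. The CCAAT box was in 4 member windows, of Cyp2e1, Aox3, Ephx1 and 1 start of Aldh1a1, and in 33.8% of all windows. The C/EBP motif TTGCNNAA was in 3 member windows, both of Fmo2 and 1 of Aldh1a1, and in 9.56% of all. The core GCGTG bound by the aryl hydrocarbon receptor was in the Aox3 window and in 28.2% of all. The antioxidant response element TGACNNNGC (10.2% of all) and the PPAR direct repeat, AGGTCA followed after 1 base by AGGTCA (0.0335% of all), matched none of the 9 windows. No motif was shared by all members, and a match in these windows is a description, not a binding site.

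All 9 members read lower in both arthritic pools than in both nonarthritic pools, and the groups did not overlap for any of them. Over all genes, 26.1% had both arthritic pools below both nonarthritic pools. All 9 were also called lower in the fit across all genes (limma, Benjamini-Hochberg adjusted p under 0.05), as were 6.62% of all genes. The members' log2 fold changes, arthritic over nonarthritic, ran from -4.80 to -1.24, with a median of -1.97 against 0.005 over all genes. Calls with a fall of at least 2-fold were seen in 9 members and in 3.12% of all genes. Calls with a fall of at least 8-fold were seen in 3 members and in 0.216%. The values below are log2 signals after RMA, and each member is compared with itself across arrays, since probe sets of different genes have no common scale. In these bulk samples fewer cells of a type and less RNA per cell cannot be told apart.

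**Figure D1:**
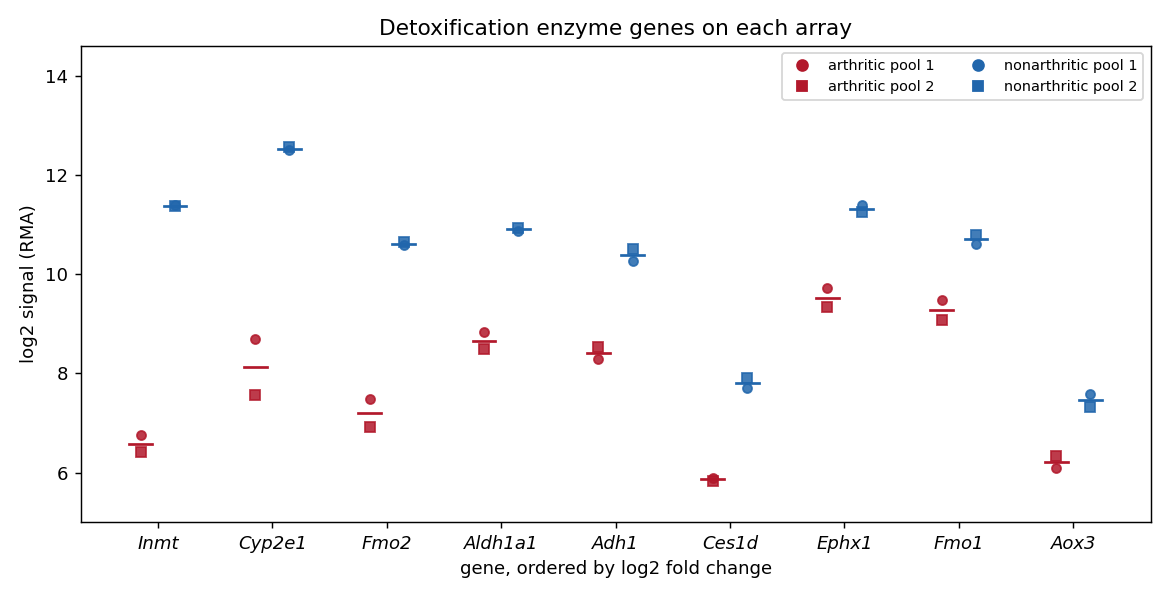
The log2 signal (vertical axis) of each of the 9 detoxification genes is plotted for the 2 arthritic pools (red, left) and the 2 nonarthritic pools (blue, right), with circles for pool 1, squares for pool 2 and a line at the mean of 2. Every red point lies below both blue points of its gene, with gaps from 1.0 for Aox3 to 4.62 for Inmt.

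Among the oxidising enzymes, Cyp2e1, a cytochrome P450 that oxidises ethanol, acetone and other small molecules, read 8.70 and 7.57 in arthritic pools 1 and 2, against 12.50 and 12.56 in nonarthritic pools 1 and 2. The nonarthritic pools were close together, while the arthritic pools stood 1.13 apart, more than 2-fold on the linear scale. Its log2 fold change was -4.39 ± 0.32 (SE, limma adjusted p = 0.000216), a 21.0-fold fall. Without arthritic pool 1 the log2 fold change was -4.96, and without arthritic pool 2 it was -3.83.

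Fmo1 and Fmo2 encode flavin-containing monooxygenases, which oxidise nitrogen and sulfur atoms of many compounds. Fmo2 read 7.49 and 6.92 in the arthritic pools, against 10.59 and 10.64 in the nonarthritic pools. Its log2 fold change was -3.41 ± 0.21 (limma adjusted p = 0.000136). The signal of arthritic pool 2 lay just under the background level described below for Aox3. With that level in its place, the fall between group means was 10.6-fold. Folds against that level, here and below, are ratios of means without sampling error. Fmo1 fell much less. It read 9.47 and 9.07 in the arthritic pools and 10.61 and 10.79 in the nonarthritic pools, a log2 fold change of -1.43 ± 0.19 (adjusted p = 0.00223). The 95% intervals of their log2 fold changes, -3.89 to -2.93 for Fmo2 and -1.86 to -1.0 for Fmo1, did not overlap, although in the RefSeq gene order the genes are neighbours on chromosome 1.

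Aox3 encodes an aldehyde oxidase, a molybdenum enzyme that oxidises aldehydes and nitrogen-containing rings. It read 6.10 and 6.33 in the arthritic pools, against 7.59 and 7.33 in the nonarthritic pools, and had the smallest difference of the 9 (log2 fold change -1.24 ± 0.18, adjusted p = 0.00303). Both arthritic values lay among those of olfactory receptor genes, which are not expected to be transcribed in synovium. The 95th percentile of 1105 such genes was 6.77 and 6.94 on the arthritic arrays and 6.86 and 7.36 on the nonarthritic arrays. The Aox3 signal of nonarthritic pool 2 also lay just under the level of its own array, so the fall rests on dim signals and its size is uncertain.

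Both hydrolase genes fell. Ephx1, the microsomal epoxide hydrolase, which opens reactive epoxides with water, read 9.72 and 9.33 in the arthritic pools, against 11.39 and 11.25 in the nonarthritic pools. Its log2 fold change was -1.79 ± 0.18 (adjusted p = 0.000758), a 3.47-fold fall. Ces1d, a carboxylesterase that in mouse also hydrolyses stored triglyceride, read 5.90 and 5.83 in the arthritic pools and 7.71 and 7.90 in the nonarthritic pools. Its log2 fold change was -1.94 ± 0.16 (adjusted p = 0.000357). On both arthritic arrays the signal lay below the 95th percentile of olfactory receptor genes, and against that level the fall between group means was 1.94-fold.

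Inmt, a methyltransferase of indole amines such as tryptamine and the only conjugating enzyme of the 9, had the largest difference in signal. It read 6.75 and 6.41 in the arthritic pools, against 11.39 and 11.37 in the nonarthritic pools. The nonarthritic pools differed by 0.02 and the gap to the nearest arthritic pool was 4.62. The log2 fold change was -4.80 ± 0.17 (adjusted p = 7.71e-05). On both arthritic arrays the signal lay below the 95th percentile of olfactory receptor genes, and against that level the fall between group means was 23.1-fold.

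Adh1 and Aldh1a1 encode enzymes of the alcohol and retinoid oxidation steps described above. Adh1 read 8.29 and 8.54 in the arthritic pools, against 10.26 and 10.51 in the nonarthritic pools, a log2 fold change of -1.97 ± 0.18 (adjusted p = 0.000449). Its other probe set read 4.78 and 4.81 in the arthritic pools and 4.74 and 4.85 in the nonarthritic pools, near the olfactory receptor medians of 4.6 to 5.15, and showed no difference. Adh1 was the only member with more than 1 probe set, and the mean of both gave a log2 fold change of -0.98, still called. Aldh1a1 read 8.83 and 8.49 in the arthritic pools and 10.88 and 10.93 in the nonarthritic pools. Its log2 fold change was -2.24 ± 0.18 (adjusted p = 0.000281), a 4.74-fold fall.

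**Figure D2:**
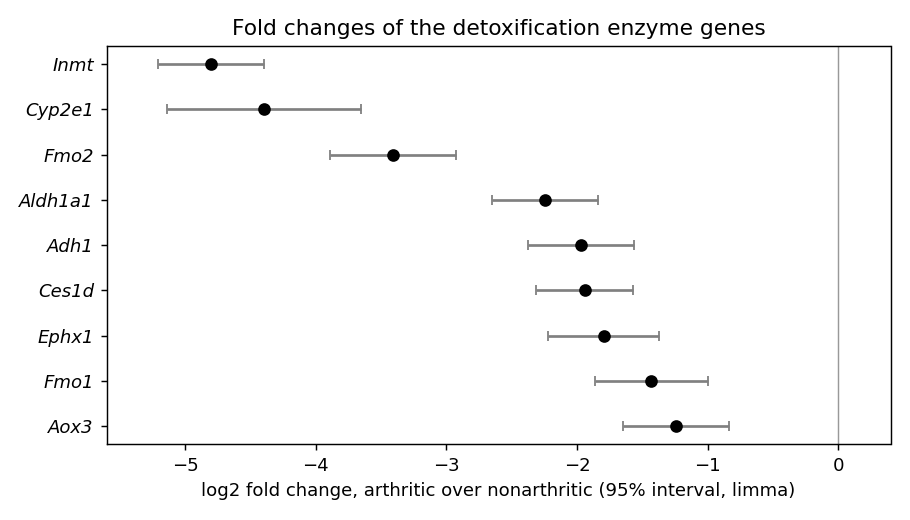
Points give the log2 fold change, arthritic over nonarthritic (horizontal axis), of each detoxification gene, with the 95% interval from limma as bars. The intervals of Inmt, Cyp2e1 and Fmo2 lie below those of the other 6 genes, and no interval reaches 0.

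Each member kept its direction when any 1 pool was left out, but not every member kept its call with 1 residual degree of freedom. Without arthritic pool 2, Fmo1, Ces1d, Aox3, Adh1 and Ephx1 were no longer called, with limma adjusted p of 0.08, 0.0552, 0.0783, 0.0535 and 0.0594. Without nonarthritic pool 2, Fmo1 (adjusted p = 0.0886), Aox3 (0.0615) and Ephx1 (0.0523) were not called. Aox3 was not called without arthritic pool 1 (0.0765) or without nonarthritic pool 1 (0.0535). Cyp2e1, Inmt, Fmo2 and Aldh1a1 stayed called in each of these 4 fits.

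Several members lie beside close relatives in the genome, which allows each family to be compared along its cluster. In the Ces1 cluster on chromosome 8, Ces1f, separated from Ces1d by Ces1e, fell as well. Ces1f read 5.90 and 6.03 in the arthritic pools, against 9.27 and 9.07 in the nonarthritic pools (log2 fold change -3.20 ± 0.16, adjusted p = 7.77e-05). The other 7 measured genes of the cluster, from Ces1a to Ces5a, had log2 fold changes of -0.27 to 0.20 and did not pass the test. Of these 7, 6 lay below the olfactory 95th percentile on both nonarthritic arrays, so their values do not show whether they fell. Both arthritic Ces1f signals lay below that level, and against it the fall between group means was 4.99-fold. Close copies in this family can share probes, so a value may read more than 1 gene.

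In the aldehyde oxidase cluster on chromosome 1, Aox1, the neighbour of Aox3, read 8.23 and 7.92 in the arthritic pools and 9.43 and 9.29 in the nonarthritic pools (log2 fold change -1.28 ± 0.17, adjusted p = 0.00257). Aox4, on the other side, had signals of 4.89 and 5.04 in the arthritic pools and 4.74 and 5.17 in the nonarthritic pools, close to olfactory receptor medians. Aox2 had a log2 fold change of 0.08 and was not called. Beside the flavin monooxygenase pair, Fmo4 (-0.30) and Fmo6 (-0.24) were not called. Aox4, Aox2, Fmo4 and Fmo6 lay below the olfactory 95th percentile on all 4 arrays, so their values do not show whether they changed.

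Of the 5 relatives beside Adh1 on chromosome 3, Adh7, which acts on retinol and ethanol in epithelia, was called lower (log2 fold change -0.96 ± 0.17, adjusted p = 0.00737). Of the 4 others, 3 (Adh6a, Adh6b and Adh4) lay below the olfactory 95th percentile on all 4 arrays. Adh5, the formaldehyde-oxidising class III enzyme found in most tissues, read 10.11 and 9.51 in the arthritic pools and 9.87 and 9.75 in the nonarthritic pools, with equal group means. Aldh1a7, a close copy of Aldh1a1 next to it on chromosome 19, fell by 0.95 on the log2 scale (adjusted p = 0.00563), from signals below the olfactory 95th percentile on all 4 arrays, and may share probes with it.

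The wider pathway was described with 12 lists that hold 260 other genes, of which 234 were measured. Of these 234 genes, 39 fell and 18 rose, which is 16.7% and 7.69%, beside 6.62% and 8.72% of all genes. With arrays centred on their medians, 32 fell and 26 rose. Their median log2 fold change was -0.07. The other 177 genes did not pass the test. Of these, 64 lay below the olfactory 95th percentile on all 4 arrays, so their values do not show whether they changed. Of all 234 genes 68 lay below that level, so a few of the falls, among them Cyp3a13 and Aldh1a7, rest on equally dim signals. Without arthritic pools 1 and 2 and nonarthritic pools 1 and 2 in turn, 16, 7, 15 and 9 list genes fell and 4, 0, 7 and 1 rose. With the 0, limma still gave 23 higher list genes at an unadjusted p under 0.05. Of the 57 called genes, Ces1f, Pon1, Gsta3 and Gsta4 kept their calls in all 4 of these fits, and 30 kept it in none.

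**Figure D3:**
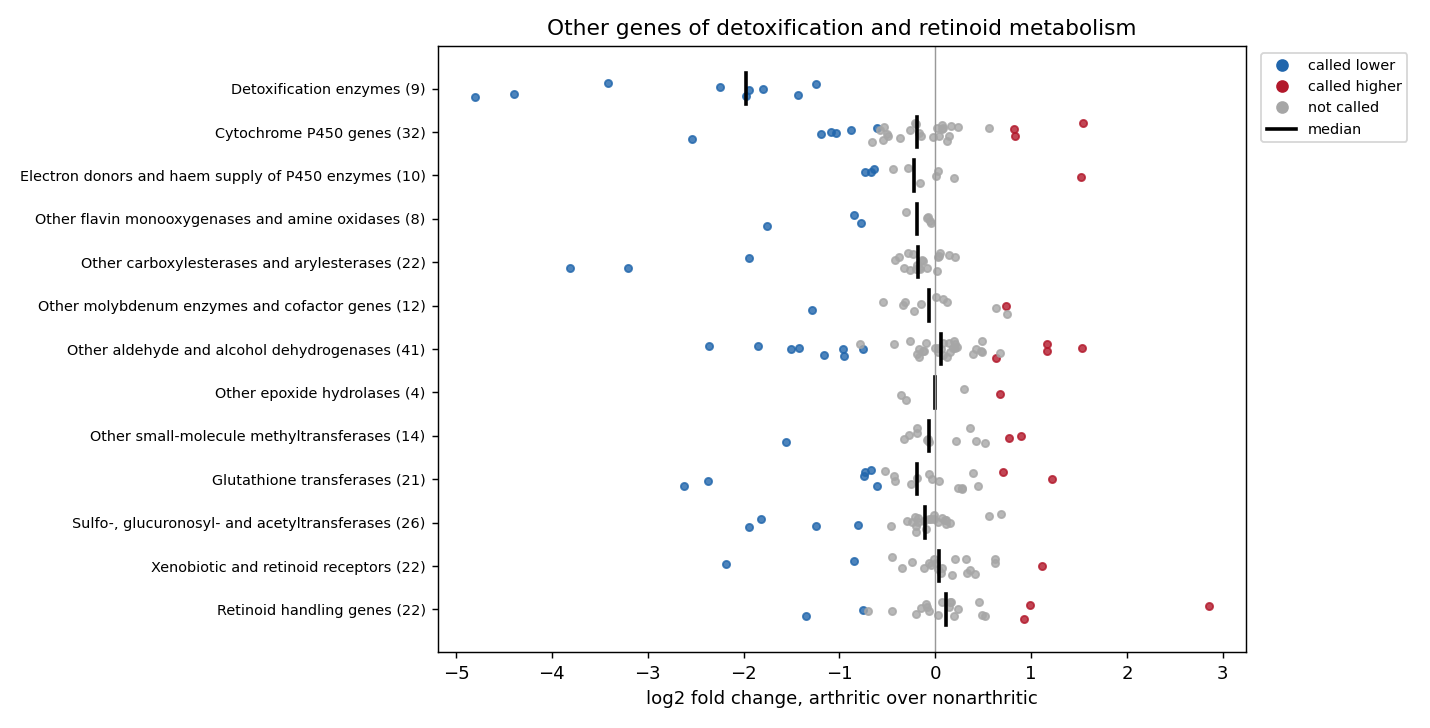
Each point is 1 gene, placed by its log2 fold change, arthritic over nonarthritic, in the row of its list, with the number of measured genes in brackets and the median as a black bar. Blue points were called lower, red points higher and grey points neither. The medians of the 12 lists run from -0.22 to 0.11, against -1.97 for the 9 detoxification genes.

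Of 32 other cytochrome P450 genes, 6 fell and 3 rose (median -0.18). Cyp2f2, known for activating naphthalene in the airway, fell most: it read 10.34 and 9.69 in the arthritic pools, against 12.61 and 12.49 in the nonarthritic pools (log2 fold change -2.54 ± 0.23, adjusted p = 0.000434). Cyp3a13 (-1.19, below the olfactory 95th percentile on all 4 arrays) and the sterol 27-hydroxylase Cyp27a1 (-1.08) also fell. Cyp4f18, a leukotriene hydroxylase of mouse neutrophils, rose by 1.54, followed by Cyp4f16 (0.83) and the oxysterol hydroxylase Cyp7b1 (0.82). Cyp1b1, a target of the aryl hydrocarbon receptor, was at -0.65 and just missed the threshold (adjusted p = 0.05003).

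The P450 enzymes need electrons and haem. Of 10 measured genes for these, the haem-binding Pgrmc1 (-0.73) and the cytochromes b5 Cyb5b (-0.67) and Cyb5a (-0.63) fell, and Hmox1, which degrades haem, rose by 1.52 ± 0.17 (adjusted p = 0.00121). The 3 falls were not called when arrays were centred on their medians.

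Of 8 other flavin monooxygenase and amine oxidase genes, 3 fell and the other 5 did not pass. Maob, a monoamine oxidase, fell by 1.75 ± 0.17 on the log2 scale (adjusted p = 0.000547), Aoc3 by 0.84 and Fmo5 by 0.77. Of 22 other esterase genes, 3 fell and 19 did not pass. Pon1, a paraoxonase, read 5.91 and 5.53 in the arthritic pools, against 9.33 and 9.74 in the nonarthritic pools (limma adjusted p = 9.35e-05). Both arthritic signals lay under the olfactory level, and against that level the fall between group means was 6.43-fold. The butyrylcholinesterase gene Bche fell by 1.94, with both arthritic signals under that level. Of 12 other molybdenum enzyme and cofactor genes, Aox1 fell and Mtarc1 rose (0.74).

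Other aldehyde and alcohol dehydrogenases moved in both directions, with 8 of 41 falling and 4 rising (median 0.06). Adhfe1 (-2.36 ± 0.24), Aldh1a3 (-1.84 ± 0.20) and Aldh3a1 (-1.5 ± 0.17) fell most, and Aldh1l2 (1.53), Aldh1a2 (1.16) and the proline synthesis gene Aldh18a1 (1.16) rose. The 3 retinaldehyde dehydrogenases therefore did not move together. Aldh1a2 read 10.04 and 10.15 in the arthritic pools and 9.14 and 8.72 in the nonarthritic pools, while Aldh1a1 and Aldh1a3 fell. Mitochondrial Aldh2, which clears acetaldehyde, was at -0.78 (adjusted p = 0.072).

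Of 4 other epoxide hydrolase genes, Lta4h, whose enzyme makes leukotriene B4, rose by 0.67, a call that ended with quantile normalization again, and Ephx2 was at -0.35 (adjusted p = 0.213). Of 14 other methyltransferase genes, Mettl7a1 fell (-1.56), and Gamt (0.89) and the nicotinamide methyltransferase Nnmt (0.76) rose. Inmt and Nnmt, related enzymes, thus had opposite signs.

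Among enzymes that attach larger groups, 6 of 21 glutathione transferase genes fell and 2 rose (median -0.19). Gsta4, which clears lipid peroxidation products, read 7.58 and 6.99 in the arthritic pools, against 9.96 and 9.85 in the nonarthritic pools (log2 fold change -2.62 ± 0.21, adjusted p = 0.000339). Gsta3 (-2.38, with both arthritic signals under the olfactory level) and Gstm1 (-0.74) followed, and Gsto1 (1.22) and Gstt4 (0.71) rose. A list of 26 genes held sulfo-, glucuronosyl- and acetyltransferases with related and supply genes, and 4 of them fell. Sult1a1 (-1.94), Ugt8a (-1.81), which makes myelin lipid, and the supply gene Ugp2 (-1.24) led these falls. For Ugt8a, the signal of arthritic pool 2 lay under the olfactory level.

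Of 22 nuclear receptors and transcription factors of this pathway, Pparg (-2.18 ± 0.18, adjusted p = 0.000329), the main regulator of fat cell formation, and the retinoic acid receptor Rarb (-0.84) fell, and Cebpb rose (1.11). Ahr (0.17), Cebpa (-0.34) and Hnf4a (0.32) were not called. Of 22 retinoid handling genes, the binding proteins Crabp2 (2.86 ± 0.25, adjusted p = 0.000429) and Crabp1 (0.98) and the dehydrogenase Rdh12 (0.92) rose, and Rarres1 (-1.35) and Retsat (-0.75) fell. For Rarres1, 1 arthritic signal lay under the olfactory level. Crabp2 read 11.75 and 11.79 in the arthritic pools, against 9.31 and 8.51 in the nonarthritic pools. The retinoic acid hydroxylase Cyp26b1 was at 0.24 (adjusted p = 0.434).

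Markers of several cell types moved with the groups, and their part in the members' differences was not tested. Of 21 measured adipocyte markers, 19 fell, with a median log2 fold change of -1.82, near that of the 9 members. The summed linear signal of the 21, set mostly by the brightest of them, was 17196 and 11550 in the arthritic pools, against 57339 and 58196 in the nonarthritic pools. Lgals12 (-3.66), Cidec (-3.40), Plin1 (-2.94), Plin4 (-2.71) and Adipoq (-2.55) were among those that fell. Plin1, which coats lipid droplets, read 8.12 and 7.85 in the arthritic pools, against 11.02 and 10.82 in the nonarthritic pools. Adipoq, the adiponectin gene, read 7.21 and 6.17 in the arthritic pools, the lower value being under the olfactory 95th percentile, against 9.15 and 9.33 in the nonarthritic pools. Without arthritic pools 1 and 2 and nonarthritic pools 1 and 2 in turn, 16, 5, 12 and 10 adipocyte markers fell.

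Fibroblast markers split. Of 26 adventitial and sublining markers, 8 fell and 6 rose (median -0.01). Their summed linear signal, set mostly by the brightest genes, was 101814 and 90253 in the arthritic pools and 104403 and 101298 in the nonarthritic pools. The broad markers Dpt (-0.06, adjusted p = 0.851) and Pi16 (-0.52, adjusted p = 0.122) did not pass, Dpp4 fell by 0.93, Abca8a (-3.88) and Gsn (-1.65) fell most, and Sfrp2 (2.20) and Mfap4 (2.08) rose most. Of 11 lining fibroblast markers 6 fell (median -1.35), led by Clic5 (-2.48) and Htra4 (-1.88), while lubricin, Prg4, read 13.27 and 13.52 in the arthritic pools and 13.66 and 13.66 in the nonarthritic pools. In the fits without 1 pool, in the order above, 3, 1, 3 and 1 adventitial and sublining markers and 5, 1, 1 and 0 lining markers fell. In the last of these fits 8 lining markers were lower at an unadjusted limma p under 0.05. The adventitial and sublining median was 0.08 with arrays centred on their medians.

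All 16 skeletal muscle markers fell (median -3.15), with summed linear signals of 8124 and 5997 in the arthritic pools and 51528 and 66208 in the nonarthritic pools. Ckm, Acta1 and Myh1 had log2 fold changes of -2.83, -2.33 and -3.46, and Myoz1 (-3.82) and Neb (-3.81) fell most. Of 9 Schwann cell markers 8 fell (median -0.89), led by Cdh19 (-2.39). Neutrophil markers went the other way, with 13 of 18 rising (median 2.51), and their summed signal was 20608 and 24098 in the arthritic pools, against 3591 and 2564 in the nonarthritic pools. In the same 4 fits 15, 10, 16 and 11 muscle markers fell, 2, 1, 3 and 1 Schwann cell markers fell, and 10, 3, 12 and 8 neutrophil markers rose. Macrophage markers had 4 rising and 4 falling genes of 17, endothelial markers 2 rising of 14, and chondrocyte markers 7 rising and 2 falling of 16. Chondrocyte log2 fold changes ran from -3.93 to 2.395. The summed linear signal of the chondrocyte markers was 21206 and 16953 in the arthritic pools, against 25559 and 22154 in the nonarthritic pools. With 1 pool left out, at most 1 macrophage marker and at most 2 chondrocyte markers rose, 1 to 3 macrophage markers fell, and the endothelial calls were lost (2 to 7 rises at an unadjusted limma p under 0.05).

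Several members are best known from liver, so hepatocyte markers were read as well. Of 18, 11 lay below the olfactory 95th percentile on all 4 arrays, and the summed linear signal was 1633 and 1796 in the arthritic pools and 1955 and 2049 in the nonarthritic pools. Of the 18, 3 fell and 1 rose. Alb, the albumin gene, fell (-1.82 ± 0.17, adjusted p = 0.000468), with 6.49 and 6.65 in the arthritic pools and 8.50 and 8.29 in the nonarthritic pools. Both arthritic Alb signals lay below the olfactory 95th percentile, so the size of the fall is uncertain. Tdo2 (-0.97) and Ahsg (-0.83) fell and Uox rose (0.86), with Tdo2 and Uox below the olfactory 95th percentile on all 4 arrays. Apoa1 (-0.07), Apoa2 (0.31) and Ttr (-0.06) did not pass. The list's median was -0.02, and 0.075 with arrays centred on their medians.

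**Figure D4:**
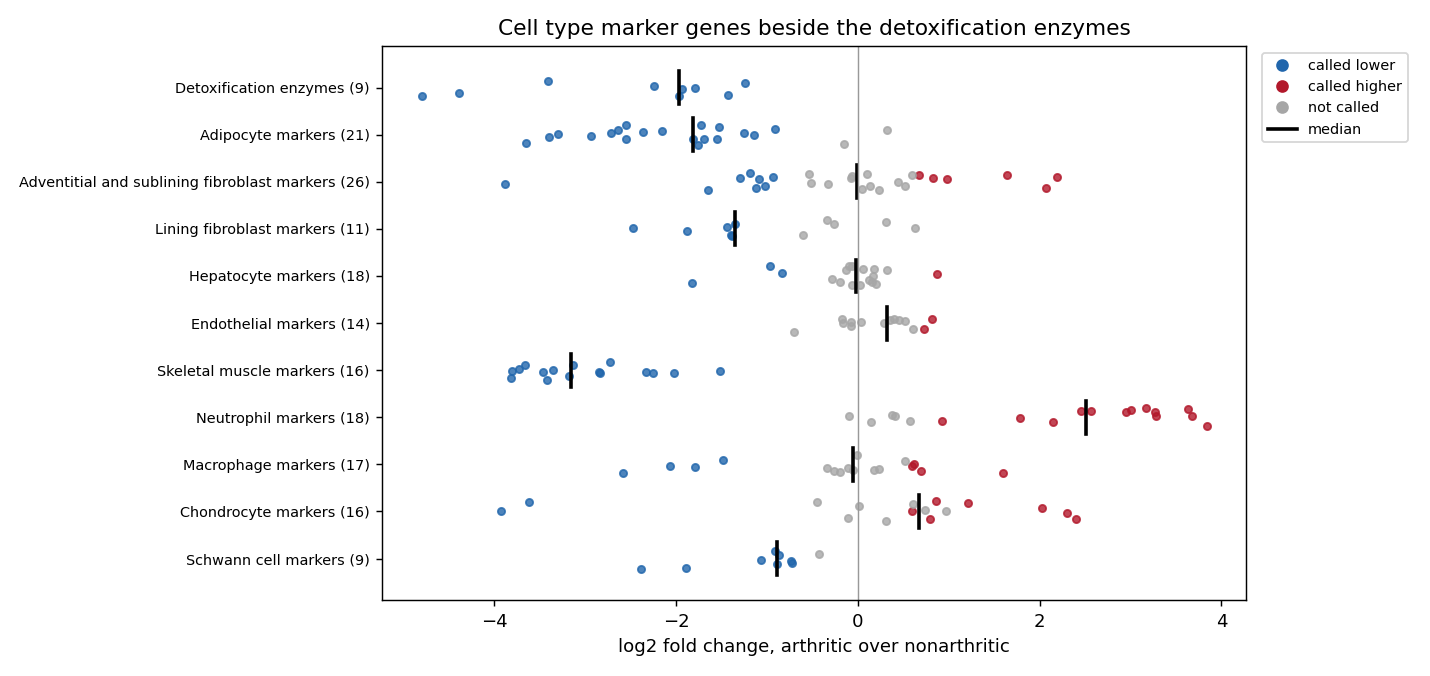
Each point is 1 marker gene, placed by its log2 fold change, arthritic over nonarthritic, in the row of its cell type, with the measured number in brackets and the median as a black bar. The adipocyte median of -1.82 lies near the -1.97 of the detoxification genes, the muscle median of -3.15 is lower, and the hepatocyte and adventitial fibroblast medians, -0.02 and -0.01, lie near 0 and turn positive with median-centred arrays.

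The members also varied between the pools of a group. In the arthritic group 7 of 9 read higher in pool 1 than in pool 2, with a median difference of 0.34, against 0.00 over all genes. The other 2, Adh1 and Aox3, were 0.25 and 0.23 lower in pool 1. Of the adipocyte markers, 17 of 21 were also higher in arthritic pool 1 (median difference 0.28). So were 15 of 16 muscle markers (0.37) and 20 of 26 adventitial and sublining markers (0.21). Endothelial (13 of 14, 0.275), lining fibroblast (8 of 11, 0.28) and chondrocyte markers (12 of 16, 0.23) were mostly higher there too. Fewer were higher among neutrophil (2 of 18, -0.32), hepatocyte (3 of 18, -0.17), macrophage (8 of 17, -0.01) and Schwann cell markers (5 of 9, 0.03). Between the nonarthritic pools the members differed by 0.02 to 0.26 in size, with 3 higher in pool 1 and 6 higher in pool 2.

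**Figure D5:**
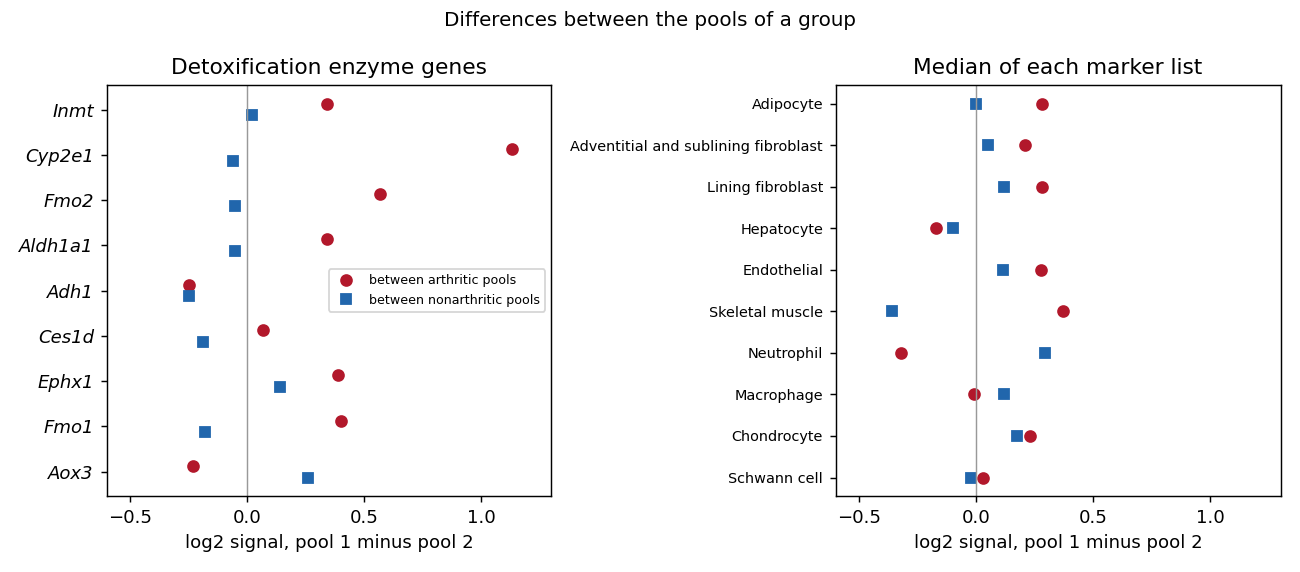
The horizontal axes give pool 1 minus pool 2 in log2 signal, between the arthritic pools (red circles) and between the nonarthritic pools (blue squares), for each detoxification gene (left) and as the median of each marker list (right). Cyp2e1 has the largest difference, 1.13 between the arthritic pools, and no member differs by more than 0.26 between the nonarthritic pools.

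The genes most like the mean of the 9 members over the 4 arrays were Abcd2, Pla1a, Cd209d, Cldn1 and Plin4. Likeness was measured as the Euclidean distance between values centred on each gene's own mean, which ran from 0.0522 for Abcd2 to 0.2185 for Plin4. With 4 arrays in 2 groups this distance mostly reflects the size of the group difference. Abcd2, a peroxisomal transporter of very long fatty acids, read 8.60 and 8.28 in the arthritic pools, against 11.06 and 11.04 in the nonarthritic pools. Plin4 also stood among the adipocyte markers above.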

How the data were processed

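The authors deposited log2 signals with 2 decimals. RMA, a method of background correction, quantile normalization and probe summary, is named in the submitters' processing notes with Affymetrix Power Tools and Expression Console, without versions. The log2 scale was read from the values (2.89 to 14.27). Of 41345 probe sets, 23521 had 1 gene symbol in the platform table, 1814 several and 16010 none. Those with 1 symbol gave 22180 genes, each kept as its probe set with the highest mean, and all 9 members matched the RefSeq gene table by gene number.

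Arthritic and nonarthritic pools were compared with limma 3.58.1 in R 4.3.3 (lmFit and eBayes, 2-sided, no block, 2 residual and 5.98 prior degrees of freedom), with Benjamini-Hochberg adjustment over all 22180 genes. A gene rose or fell when its adjusted p was under 0.05. Array medians were 6.96 and 7.05 in arthritic pools and 7.05 and 7.15 in nonarthritic pools. Of all calls 56.8% were rises, and 67.1% with arrays centred on their medians. No detection calls were used, so dim values cannot be told from background, and the number of arrays limits precision. The fit was checked on simulated data.

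P-values and SE rest on the spread between pools, not mice. The limma prior drew each gene's variance toward that of all genes, so an SE is not the spread of that gene's own pools alone. The pools are called biological replicates by the submitters. The members and the gene lists were chosen with earlier results of these data known, and 26 of the 260 pathway genes were not analysed here. The text names all members, and up to 3 called genes each way and some preset genes per pathway list. For adipocyte, fibroblast, muscle and hepatocyte markers it names some called genes and leading markers. The other cell types are given mainly as counts. Alternatives changed the normalization, dim-gene filter, probe set choice, variance prior, threshold, block and pools.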

Additional observations from a re-analysis of the deposited data

How the results depend on the processing

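All 9 members kept their direction and their call under quantile normalization again, median centring, the dim-gene filter (higher group mean above 6.96, which all 9 passed, 6 of them in both groups), averaging of probe sets, a trended or robust variance prior and an added 2-fold threshold. Requiring 2-fold left 772 higher and 691 lower of all genes, and 8 higher and 22 lower genes of the pathway lists. Median centring gave 26 higher and 32 lower pathway list genes. Pool numbers are shared between the groups, but the labels do not say that they pair the pools. Differences between pools 1 and 2 correlated at 0.176 across genes between the groups. With the pool number as a block, 1216 genes were higher and 9 pathway list genes were higher, and all 9 members stayed called (limma adjusted p 0.0176 to 0.0336). With 1 pool left out in turn, all genes gave 47 to 637 higher and 105 to 584 lower calls, the members 4 to 8 calls, and the pathway lists 0 to 7 higher (20 to 31 at an unadjusted limma p under 0.05) and 7 to 16 lower. These fits have 1 residual degree of freedom, and the lone pool is assumed to vary like the other group. All 57 called list genes kept their sign under every alternative in which they were tested.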
